A study of Mus musculus with 20 samples.

Results

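Xenobiotic metabolism enzymes were taken as the gene symbols of 15 families, namely the cytochrome P450 families Cyp1 to Cyp4, the UDP-glucuronosyltransferases Ugt1 and Ugt2, the glutathione S-transferases Gsta, Gstm, Gsto, Gstp and Gstt, the sulfotransferases Sult1 and Sult2, and the aldehyde dehydrogenases Aldh1 and Aldh3. Of 149 symbols with these prefixes, pseudogenes left out, 61 had a mean normalised expression of at least 1 over the 20 libraries and are described here. They were 61 of the 13539 symbols at that level, out of 35240 in the table. The prefix rule also took Aldh16a1 and Aldh18a1, which belong to other aldehyde dehydrogenase families and are counted among the 61. The 88 symbols under the threshold included 48 at 0 in every library. The members nearest to the threshold were Cyp2j9 at 1.00, Aldh1a7 at 1.02 and Cyp4f14 at 1.05, and the nearest symbols left out were Cyp2c65 at 0.892, Cyp2r1 at 0.885 and Cyp2u1 at 0.621. Because the threshold acts on the mean of all libraries, a gene that was high in a single group could pass through that group. There were 8 members, Cyp2c68 among them, with a mean under 1 in the Tnfr2-/- libraries that passed through WT, and 1, Cyp2j9, that passed through Tnfr2-/-.

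Colonic organoids (colonoids), epithelial structures grown from crypts of the distal mouse colon in Matrigel with IntestiCult medium, were compared between WT (C57BL/6) and whole-body Tnfr2-/- mice, which lack TNF receptor 2, encoded by Tnfrsf1b. The mice were 8 weeks old and of both sexes in the study's culture protocol. All cultures had been passaged 5 times, were seeded through a mesh and were collected on days 1, 2, 3, 5 and 7 post-passage (DPP), which gave 10 groups of 2 libraries from 2 mice per genotype. The replicate number was read as naming the same mouse on every day, which the labels do not state outright. On that reading the 5 libraries of a mouse are repeated samples of 1 animal. P-values that treat libraries as independent can then be too small for genotype effects. By its label the deletion is not restricted to a cell type, and the study reported fibroblasts beside the epithelial cells.

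Enzymes of these families make foreign and endogenous lipophilic compounds easier to excrete. In phase I, cytochromes P450 insert oxygen into the substrate and aldehyde dehydrogenases oxidise reactive aldehydes to acids. In phase II, the transferases attach glucuronic acid, glutathione or sulfate. Many of their genes respond to ligand-activated transcription factors, such as the aryl hydrocarbon receptor (AhR) and the pregnane X receptor (PXR, Nr1i2), or to the oxidative stress factor NRF2, and in the colon many are highest in the differentiated cells that face the lumen.

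The promoter windows of Cyp1a1, Cyp2c55 and Cyp2c68, P450 genes called in both the day and the genotype comparison, with limits given beside those results, are shown because AhR and NRF2 recognise short words in such windows. Each window holds the 250 bases before the RefSeq start site (GRCm38.p6), read 5′ to 3′ on the gene's strand. Capitals mark the AhR core GCGTG and the NRF2 words TGACNNNGC and TGAGNNNGC, searched on both strands.
Cyp1a1 (chr9:57697363-57697612, plus strand): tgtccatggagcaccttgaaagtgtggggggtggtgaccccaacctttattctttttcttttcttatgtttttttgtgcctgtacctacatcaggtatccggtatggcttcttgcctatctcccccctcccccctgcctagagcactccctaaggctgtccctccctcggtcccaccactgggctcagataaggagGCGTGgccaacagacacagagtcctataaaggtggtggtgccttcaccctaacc
Cyp2c55 (chr19:39006769-39007018, plus strand): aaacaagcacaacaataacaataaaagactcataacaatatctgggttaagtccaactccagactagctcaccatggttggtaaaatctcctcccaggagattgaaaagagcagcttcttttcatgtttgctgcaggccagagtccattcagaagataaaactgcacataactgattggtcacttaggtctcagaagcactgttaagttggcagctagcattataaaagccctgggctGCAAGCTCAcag
Cyp2c68 (chr19:39741102-39741351, minus strand): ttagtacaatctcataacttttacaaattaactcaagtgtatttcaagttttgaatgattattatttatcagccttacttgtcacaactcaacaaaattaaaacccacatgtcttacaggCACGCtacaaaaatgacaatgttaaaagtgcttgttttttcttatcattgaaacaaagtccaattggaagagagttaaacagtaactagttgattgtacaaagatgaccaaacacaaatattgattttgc
The Cyp1a1 window held GCGTG on the gene's strand, starting 54 bases before the start site, and it lies inside the span that the GENCODE M21 annotation gives Cyp1a1, which begins further upstream at position 57687928. The Cyp2c55 window held TGAGNNNGC on the opposite strand 12 bases before the start site. In the Cyp2c68 window the opposite strand held GCGTG 130 bases before the start. None of these words overlapped another. RefSeq promoters (250 bases before to 50 after the start site) were matched for 51 of the 61 members, in 65 windows. GCGTG was present in 35.4% of the member windows, 49.6% of those of all tested symbols and 32.4% of all 32851 windows. TGACNNNGC occurred in 9.23%, 14.1% and 12.4% of the same sets, and TGAGNNNGC in 21.5%, 20.0% and 17.6%. The words were therefore common in promoters at large, and their presence is a description of the sequence only. Aldh3a1 was among the 10 members without a window in the table used.

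Before the enzymes, 2 facts about the libraries bear on the comparisons. Tnfrsf1b itself was at 15.3 ± 3.09 in WT and 5.80 ± 2.84 in Tnfr2-/- libraries (SD, n = 10 each). The highest Tnfr2-/- value of 11.5, in mouse 2 at 7 DPP, lay above the lowest WT value of 11.1, so the groups overlapped. By qPCR the study reported Tnfr2 as absent from its knockout colonoids. Whether the transcripts measured here include the deleted part of the gene was not examined. The second fact is that WT mouse 1 stood apart. Over its late libraries, the summed level of the 7 goblet markers listed (6 of them above the level threshold, none at 0 in every library) averaged 1588, against 431 in WT mouse 2 and 175 and 238 in the Tnfr2-/- mice. For the 8 absorptive colonocyte markers the same averages were 1349.7 (WT mouse 1), 548, 491 and 521, and for the 8 fibroblast markers they were 1498, 3576, 5739.6 and 6729.8. Called genotype differences of the named members are therefore given with and without this mouse, as are those of pathway list genes named for one. Those of cell type markers are given with all mice only. Without a mouse, its genotype is 1 animal with 1 library per day, so the adjusted p holds no spread between its mice. Such an adjusted p can be smaller or larger than with all mice for that reason, so the differences are what to compare. The 8 epithelial markers summed to between 11639 and 20031 in every library, mostly from Krt19, Krt8 and Krt18 (means 7460, 5089 and 1979). Single markers were less even, with Epcam between 362 and 1885 and Vil1 between 91.8 and 477. Library sums lay between 900655 and 1111080, and the correlation between the mice of a group across genes lay between 0.923 and 0.956.

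Members together held between 0.254% and 0.353% of each library's sum. Levels are normalised expression, a TPM value scaled per library and therefore already per transcript length. There were 5 members with a mean of at least 100, all of them glutathione S-transferases or aldehyde dehydrogenases. Gsto1 led with a mean of 828, followed by Gstp1 at 580.3, Aldh1a3 at 364, Gstp2 at 151 and Gsta1 at 127. No P450 reached that level, the highest being Cyp2j6 at 37.1 and Cyp2b10 at 25.7. Among conjugating enzymes of other classes, Sult2b1 (49.2), Ugt2b34 (29.7) and Ugt1a7c (23.9) were highest. In all, 30 members had a mean of at least 10 and 31 were below it, and 41 were above 0 in every library.

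**Figure D1:**
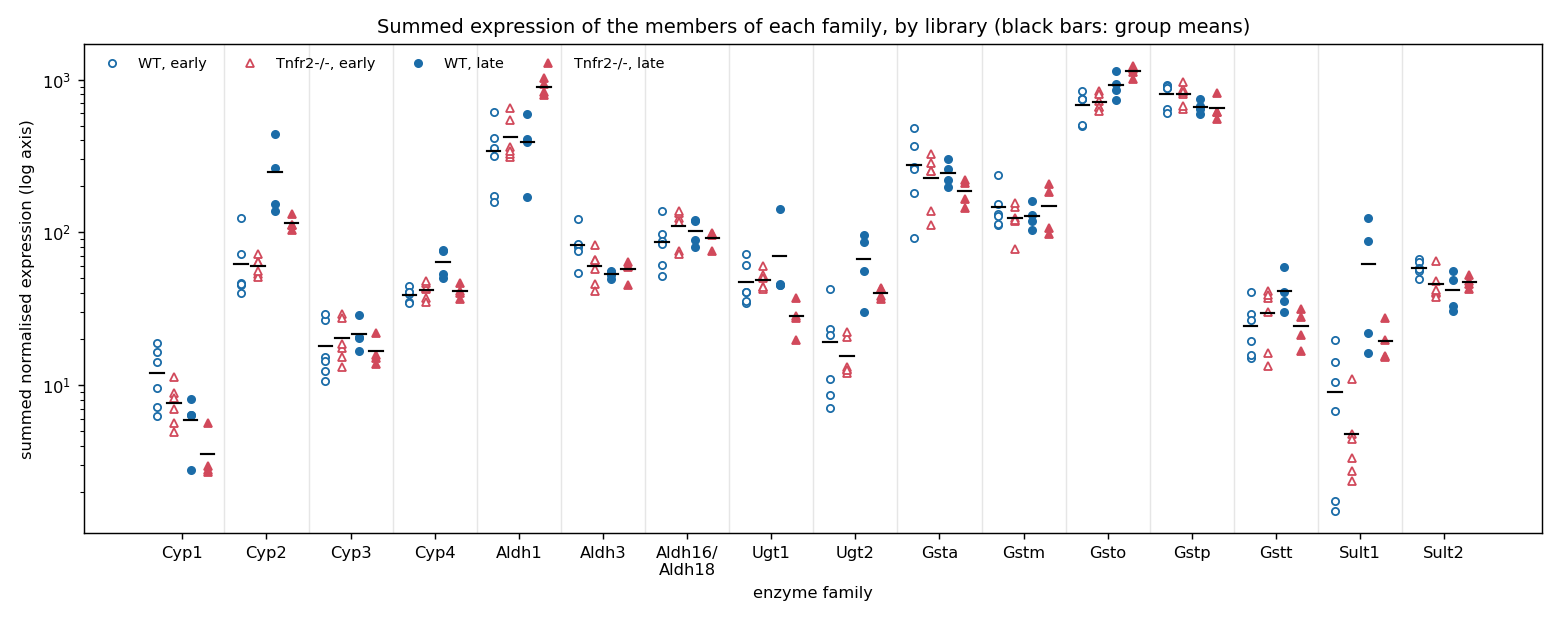
Summed normalised expression of the members of each family on a log axis, 1 point per library, with open symbols for early (1, 2 and 3 DPP) and filled symbols for late days (5 and 7 DPP), circles for WT, triangles for Tnfr2-/-, and black bars for group means. The Cyp2 sum is higher at the late days in both genotypes, and the Aldh1 sum is highest in late Tnfr2-/- libraries.

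Summed by family, the P450 family Cyp2 went in WT from 62.5 ± 32.5 in the 6 early libraries (1 to 3 DPP) to 249.5 ± 140.8 in the 4 late ones (5 and 7 DPP, SD). In Tnfr2-/- libraries the same sum went from 60.1 ± 8.08 to 115 ± 12.3. Its late WT libraries lay between 137 and 443 and its late Tnfr2-/- ones between 104 and 133. The Sult1 sum went from 9.07 ± 7.21 to 62.4 ± 52.3 in WT and from 4.78 ± 3.21 to 19.4 ± 5.73 in Tnfr2-/-, and the Ugt2 sum from 19.0 ± 13.4 to 67.1 ± 30.1 and from 15.6 ± 4.56 to 40.1 ± 3.25. Cyp1 went the other way, from 12.1 ± 5.15 to 5.92 ± 2.24 in WT and from 7.67 ± 2.31 to 3.54 ± 1.43 in Tnfr2-/-. The large Gsto, Gstp, Gsta and Gstm sums differed by less than 1 log2 unit between the mean early and late levels of either genotype. These sums are given as levels, without a test.

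Late against early days, both genotypes together, asked which enzymes changed as the colonoids matured. Of the 61 members, 18 rose and 7 fell in limma's test on log2(value + 1), at an adjusted p under 0.05 across all genes. Over all symbols tested, 18.0% rose and 14.7% fell, against 29.5% and 11.5% of the members, and the median log2 difference was 0.22 for members and 0.01 for all symbols. These shares are partly set by the level threshold, since 9 members passed it through the late libraries alone, 4 of them called higher (Cyp2w1, Cyp2d26, Cyp4f40 and Aldh3b2), and 2 through the early libraries alone, of which Ugt1a6b was called lower. The counts are therefore given as a description, and the tests of those 5 genes are of members chosen through the phase where they were high. The 18 that rose did so in each of the 4 mice, and 6 of the 7 that fell did so in each mouse, Ugt1a6a being the exception. Rising members were spread over the P450, aldehyde dehydrogenase, Ugt2, Gsta, Gstm, Gsto and Sult1 families, while the falling ones were in Cyp1, Aldh3, Ugt1, Gsta and Gstp. No member of Cyp3, Gstt or Sult2 passed in this comparison.

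**Figure D2:**
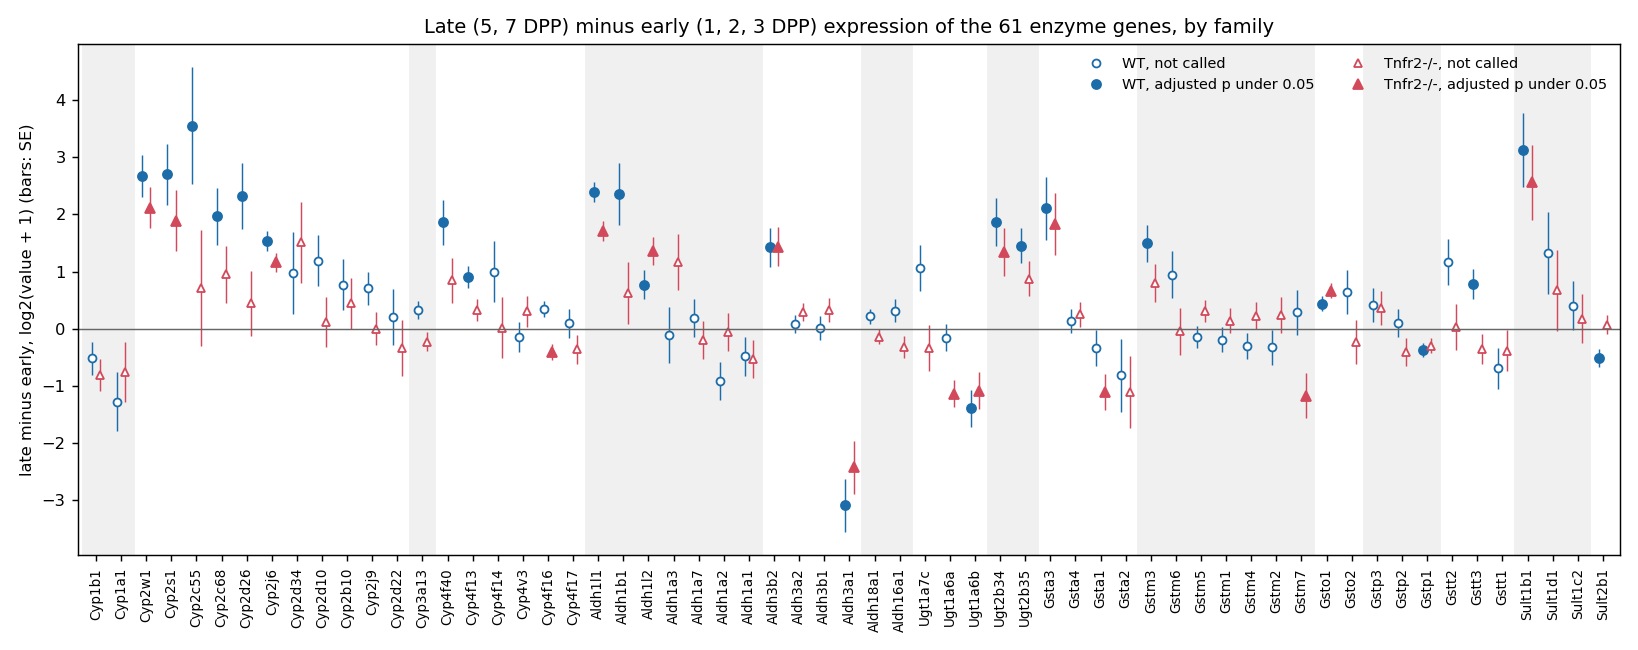
Difference between late (5 and 7 DPP) and early (1, 2 and 3 DPP) days on the log2(value + 1) scale for each of the 61 members, grouped by family, with circles for WT, triangles for Tnfr2-/-, bars for SE and filled symbols for an adjusted p under 0.05. Aldh3a1 lies lowest in both genotypes, and Sult1b1, Cyp2w1 and Cyp2s1 lie above 1 in both.

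Among the P450 genes, 6 of the 11 Cyp2 members rose, against 18.0% of all symbols, Cyp2w1 and Cyp2d26 of them having passed the threshold through the late days. Cyp2c55 (chr19:39007019-39042693, plus strand), a P450 of the mouse intestine that oxidises arachidonic acid, was measured at 7.44, 12.5, 58.4, 260.1 and 62.4 on days 1, 2, 3, 5 and 7 in WT mouse 1. WT mouse 2 gave 0.172, 0.689, 0, 23.7 and 25.3. In the Tnfr2-/- cultures it was at 0, 1.13, 2.09, 1.43 and 1.92 in mouse 1 and at 0, 0.265, 1.62, 3.01 and 0.982 in mouse 2. Both WT mice thus climbed well above all Tnfr2-/- libraries at the late days, while the early values of WT mouse 2, at most 0.689, lay within the range of the early Tnfr2-/- values. Late minus early, Cyp2c55 rose by 2.13 on the log2 scale over both genotypes (SE 0.72, adjusted p = 0.0361). The call was lost in 15 of 24 fits that each left out 1 library or 1 mouse, with a highest adjusted p of 0.271 without Tnfr2-/- mouse 2. Without WT mouse 1 the difference was 2.53.

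Cyp2s1 and Cyp2w1, both epithelial P450s found in gut and tumours, rose in both genotypes. Cyp2s1 was at 1.09, 1.41, 4.51, 22.8 and 47.3 in WT mouse 1, at 0.944, 1.22, 0.264, 3.19 and 9.55 in WT mouse 2, at 0.596, 1.38, 1.26, 5.59 and 10.5 in Tnfr2-/- mouse 1 and at 0.563, 1.30, 1.14, 7.13 and 3.98 in Tnfr2-/- mouse 2. Within each mouse both late values lay above all early ones, and the difference was 2.30 (SE 0.38, adjusted p = 4.82e-04). Cyp2w1 was listed at 0 in all 6 early Tnfr2-/- libraries and at 2.09, 3.51, 3.65 and 4.50 in the late ones. In WT it was at 0, 0.914, 2.50, 14.5 and 12.2 in mouse 1 and at 0, 0, 0.512, 3.48 and 7.49 in mouse 2, and the fitted difference over both genotypes was 2.40 (SE 0.26, adjusted p = 2.16e-05). Its mean over the early libraries was 0.327, so it was among the members that passed the threshold through the late days. Cyp2j6, an arachidonic acid epoxygenase and the most abundant P450 measured, went from 20.0 ± 5.64 to 60.4 ± 20.2 in WT and from 25.3 ± 5.46 to 57.0 ± 4.93 in Tnfr2-/- libraries (SD, n = 6 early and 4 late each). Its early and late libraries did not overlap, and the log2 difference was 1.35 (SE 0.12, adjusted p = 6.08e-06). Cyp2c68, of the same Cyp2c gene cluster as Cyp2c55, rose by 1.46 (SE 0.35, adjusted p = 0.00611), from 2.05 ± 2.57 to 10.4 ± 9.33 in WT, with late Tnfr2-/- values of 0.673, 0.965, 1.16 and 1.41. The sixth called Cyp2 gene, Cyp2d26, had a log2 difference of 1.38, and without WT mouse 1 its mean fell under the level threshold.

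Cyp1 enzymes moved in the opposite direction. Cyp1a1, which oxidises polycyclic aromatic hydrocarbons and is a classic AhR target, was at 12.2, 11.7, 5.02, 5.54 and 0.984 in WT mouse 1 and at 2.29, 1.02, 5.82, 1.05 and 0.379 in WT mouse 2. The Tnfr2-/- values were 3.13, 1.46, 1.11, 0.212 and 0.533 in mouse 1 and 1.38, 1.18, 0.401, 0.608 and 0.182 in mouse 2. Its level was thus low on day 7 in all 4 mice, and late minus early it fell by 1.02 on the log2 scale (SE 0.37, adjusted p = 0.0469), a call lost in 19 of the 24 fits that left out a library or a mouse, up to an adjusted p of 0.330 without Tnfr2-/- mouse 1. Cyp1b1, the extrahepatic member of the family, fell by 0.67 (SE 0.20, adjusted p = 0.0211), but the adjusted p was 0.112 without WT mouse 1. The Cyp4 family, whose Cyp4f enzymes hydroxylate fatty acids and leukotrienes, had 2 of 6 members that rose, at 0.62 and 1.35, against 18.0% of all symbols. The larger rise was that of Cyp4f40, which passed the level threshold through the late libraries alone. The most abundant Cyp4 member, Cyp4f16, stood at 20.9 ± 1.34 early and 26.9 ± 3.35 late in WT and at 21.1 ± 2.59 and 15.8 ± 3.22 in Tnfr2-/- libraries. Cyp3a13, the only Cyp3 gene above the threshold, was at 18.1 ± 7.90 and 21.8 ± 5.12 in WT and at 20.2 ± 6.60 and 16.7 ± 3.65 in Tnfr2-/- libraries, and did not pass in any comparison.

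Aldehyde dehydrogenases held both the largest decrease and one of the steadiest increases. Aldh3a1 (chr11:61207537-61218421, plus strand), which oxidises aldehydes from lipid peroxidation and belongs to the AhR gene battery, was at 33.8, 43.0, 9.07, 1.68 and 0.783 in WT mouse 1 and at 44.4, 72.4, 27.8, 7.00 and 5.43 in WT mouse 2. In Tnfr2-/- mouse 1 it was at 12.3, 11.0, 6.66, 2.02 and 1.98, and in mouse 2 at 35.3, 22.5, 14.0, 0.967 and 3.19. Within every mouse each late value lay below each early one, although across mice the day 5 value of WT mouse 2 was above the day 3 value of Tnfr2-/- mouse 1. The log2 difference was -2.76 (SE 0.33, adjusted p = 4.66e-05) over both genotypes, -3.09 in WT and -2.43 in Tnfr2-/-, and the call over both genotypes held in all 24 leave-out fits. On mouse means, 1 value per mouse and phase, its adjusted p was 0.228. Aldh3b2, of the same family, rose by 1.43 (SE 0.24, adjusted p = 5.85e-04) from means of 0.805 and 0.461 to 3.56 and 2.83 in WT and Tnfr2-/-, and it too passed the threshold through the late days. Aldh3a2, the fatty aldehyde dehydrogenase and most abundant Aldh3 member, stayed between 30.6 and 57.6 in all libraries and did not pass.

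Aldh1l1 (chr6:90486427-90600203, plus strand), a cytosolic folate enzyme that oxidises formyltetrahydrofolate, had the smallest p of all members. It was at 5.66, 17.0, 54.8, 83.2 and 156 in WT mouse 1, at 8.20, 20.6, 30.1, 64.9 and 103 in WT mouse 2, at 17.9, 41.5, 49.1, 124 and 97.2 in Tnfr2-/- mouse 1 and at 19.2, 31.0, 56.6, 125 and 95.5 in Tnfr2-/- mouse 2. All late libraries lay above all early ones, with a log2 difference of 2.05 (SE 0.13, adjusted p = 1.05e-06). Its mitochondrial relative Aldh1l2 rose by 1.07. Aldh1b1, a mitochondrial aldehyde dehydrogenase linked to intestinal progenitors, rose by 1.49 (SE 0.38, adjusted p = 0.00884), with late values of 20.8 and 21.8 in WT mouse 1, 3.14 and 9.33 in WT mouse 2 and 1.84 to 3.99 in the Tnfr2-/- libraries. The retinal dehydrogenases Aldh1a1, Aldh1a2 and Aldh1a3, which make retinoic acid, did not pass in this comparison, and neither did Aldh18a1, the enzyme of proline synthesis that has the highest mean of the members outside the named families.

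Glucuronosyltransferases split by locus. Both Ugt2 members rose, Ugt2b34 by 1.61 (SE 0.29, adjusted p = 0.00100) and Ugt2b35 by 1.17 (SE 0.22, adjusted p = 0.00106). Ugt2b34 was at 22.5, 19.6, 40.0, 89.2 and 79.6 in WT mouse 1 and at 8.16, 6.73, 9.89, 27.2 and 52.3 in WT mouse 2. In Tnfr2-/- mice it was between 11.9 and 20.4 early and between 34.4 and 40.6 late. Each mouse was higher late, whereas WT mouse 1 was already at the late Tnfr2-/- level on day 3. At the Ugt1 locus, where alternative first exons join shared downstream exons, Ugt1a6a fell by 0.65 (SE 0.17, adjusted p = 0.00872) and Ugt1a6b by 1.24 (SE 0.23, adjusted p = 0.00112). Ugt1a6b was listed at 0 in the 4 late WT libraries and in 1 of the 4 late Tnfr2-/- ones. Ugt1a7c did not pass, with a range of 9.74 to 101 and its highest value in WT mouse 1 on day 5. Because 84.2% of the 31-base words in the transcripts of Ugt1a6b also occur in other genes, 53.0% for Ugt1a6a and 55.7% for Ugt1a7c, the division of reads among these genes is uncertain.

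Glutathione S-transferases had the highest levels and mostly small differences. Gsto1, an omega-class enzyme that reduces dehydroascorbate, was at 495, 506, 748, 939 and 737 in WT mouse 1 and at 751, 742, 844, 1133 and 848 in WT mouse 2. The Tnfr2-/- mice gave 719.8, 658, 844, 1223 and 1002, and 656, 620.3, 801, 1174 and 1126. The maximum fell on day 5 in each mouse, and late minus early Gsto1 rose by 0.55 (SE 0.09, adjusted p = 4.82e-04). Gstp1, the pi-class enzyme, fell by 0.34 (SE 0.09, adjusted p = 0.00972), from 634 ± 85.6 to 485 ± 38.2 in WT and from 631 ± 93.5 to 519 ± 119 in Tnfr2-/- libraries. Its adjusted p was 0.0650 without WT mouse 1, and 38.5% of its 31-base words are shared with Gstp2.

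The alpha class moved both ways. Gsta3, which in mice conjugates aflatoxin epoxide, rose by 1.97 (SE 0.39, adjusted p = 0.00167), and was at 1.52, 2.06 and 1.70 on day 1 in Tnfr2-/- mice 1 and 2 and WT mouse 2, and at 29.8, 21.1 and 48.0 on day 7. WT mouse 1 was higher from the start, at 6.96 on day 1 and 33.9 on day 3, and at 35.2 on day 7. Gsta1 fell by 0.73 (SE 0.22, adjusted p = 0.0215), with its peak on day 2 in both WT mice and in Tnfr2-/- mouse 1, at 334, 176 and 149.6, and on day 3, at 173, in Tnfr2-/- mouse 2. Since 92.9% of the 31-base words of Gsta1 also occur in other genes, its level is uncertain. Among the 7 mu-class genes Gstm3 alone passed, rising by 1.14 (adjusted p = 0.00208), and it shares 37.7% of its words. The most abundant mu-class gene, Gstm2, ranged from 22.5 to 122 and did not pass, nor did Gstt2, the leading theta-class gene.

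Sulfotransferase Sult1b1 (chr5:87513339-87538195, minus strand), which sulfates phenols and thyroid hormone in the gut, had the largest increase of any member. It was at 7.14, 5.30, 10.9, 57.3 and 86.4 in WT mouse 1, at 0.304, 1.22, 1.32, 14.0 and 18.6 in WT mouse 2, at 0.998, 0, 2.64, 10.1 and 20.8 in Tnfr2-/- mouse 1 and at 1.41, 1.41, 5.74, 15.5 and 12.2 in Tnfr2-/- mouse 2. Each mouse was higher at both late days than at any early day, and WT mouse 1 was above the other 3 mice throughout. The log2 difference was 2.84 (SE 0.46, adjusted p = 4.23e-04), 2.87 without WT mouse 1, and the call held in all 24 leave-out fits. The transcripts of Sult1b1 share no 31-base word with another gene. Sult2b1, which sulfates cholesterol and pregnenolone and is the most abundant sulfotransferase, was at 58.8 ± 6.32 early and 42.1 ± 12.3 late in WT and at 45.7 ± 9.99 and 47.4 ± 4.30 in Tnfr2-/- libraries.

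**Figure D3:**
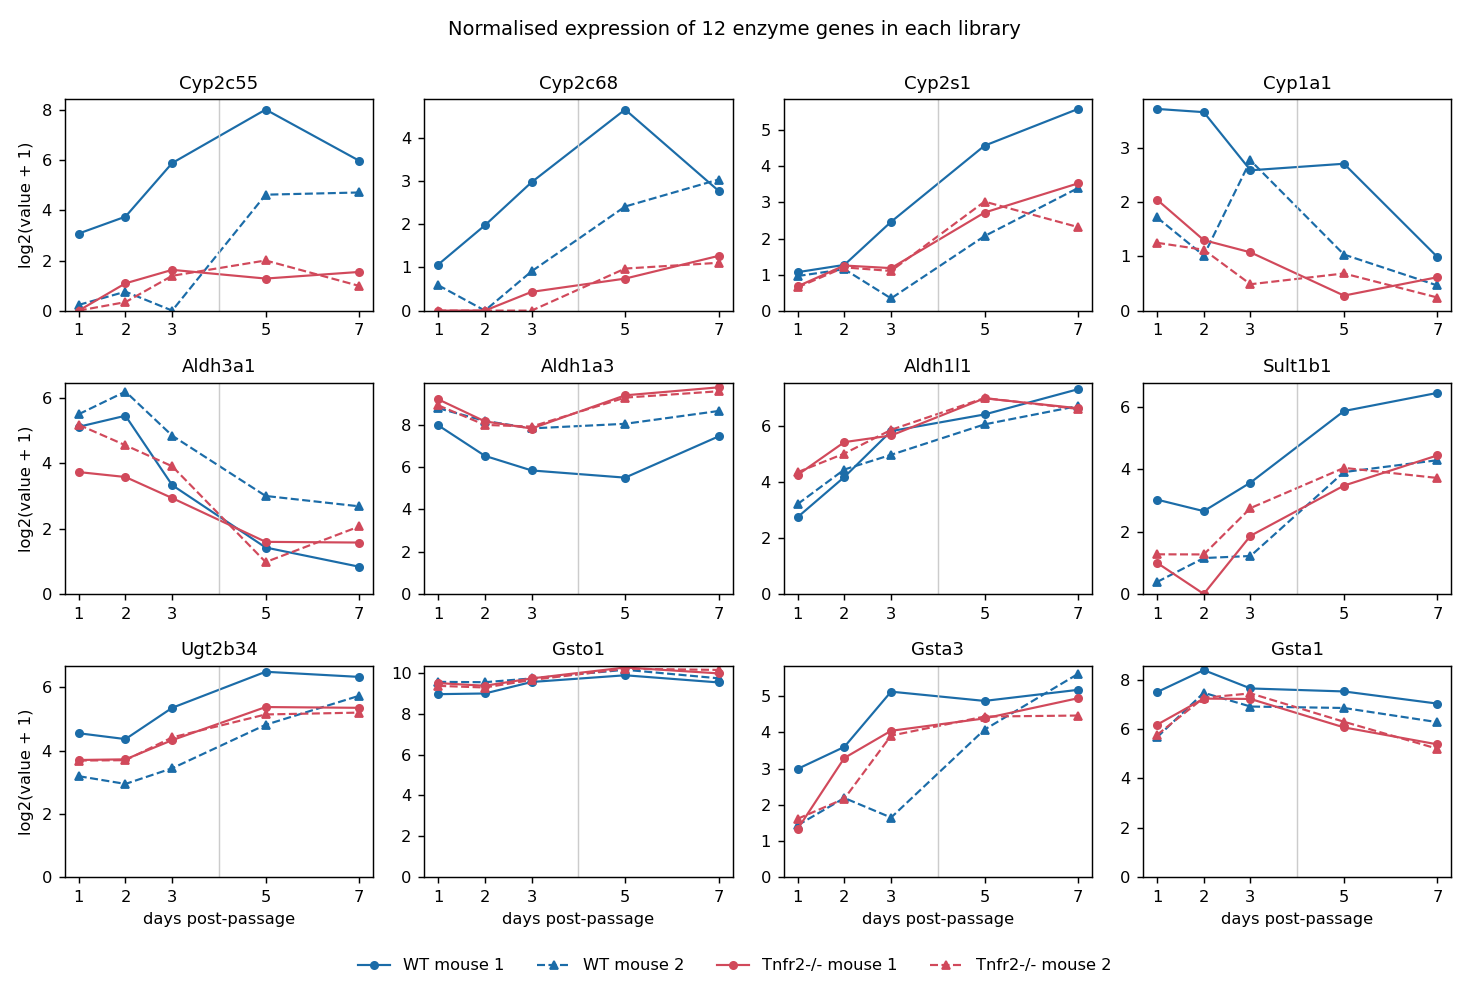
Normalised expression as log2(value + 1) against days post-passage for 12 members, with 1 line per mouse (blue for WT, red for Tnfr2-/-, solid for mouse 1, dashed for mouse 2) and a grey line between early and late days. Aldh3a1 is lower and Sult1b1, Aldh1l1 and Ugt2b34 are higher at the late days in all 4 mice, Cyp2c55 climbs to above 4 in the WT mice alone, and Aldh1a3 is lowest in WT mouse 1.

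The course was then taken in each genotype by itself. In WT, 19 members rose and 4 fell, against 11.6% and 8.52% of all symbols, with a median of 0.40 for members and 0.02 for all. In Tnfr2-/- cultures 10 rose and 6 fell, against 10.4% and 9.93%, with a median of 0.18 for members and 0.02 for all. Some members passed the level threshold through WT alone or through the late libraries alone, and Cyp2d26 and Cyp4f40 did both. The larger WT count and median are therefore in part set by that choice and are given as a description. All 10 that rose in Tnfr2-/- were among the 19 that rose in WT (100% and 52.6% of the 2 sets), and 2 of the falling genes, Aldh3a1 and Ugt1a6b, were shared (33.3% of the 6 and 50% of the 4). No member was called in opposite directions. Whether the course itself differed between genotypes was tested directly as the late minus early genotype effect, for which no member passed in limma, against 0.118% higher and 0.0295% lower of all symbols. There were 11 members at an unadjusted p under 0.05. In the fit with a replicate block for the mouse 1 member passed, Aldh1a3, at 1.29 (adjusted p = 0.0464, against 0.506 without the block). Counts within a genotype rest on 2 mice, and on mouse means no member passed in either genotype.

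The courses of some members were called in 1 genotype alone. Cyp2c55 rose by 3.56 in WT (SE 1.02, adjusted p = 0.0263), and in Tnfr2-/- the difference was 0.71 (SE 1.02), which did not pass. Aldh1b1 rose by 2.35 (SE 0.54, adjusted p = 0.00874) in WT, and its difference in Tnfr2-/- was 0.62 (SE 0.54). Ugt1a6a fell by 1.14 (SE 0.23, adjusted p = 0.00454) in Tnfr2-/- cultures, against a WT difference of -0.16. Cyp4f16 fell by 0.41 (adjusted p = 0.0490) in Tnfr2-/-, against a WT difference of 0.34 that did not pass. For Cyp2c55 the difference between the genotypes' courses was -2.84 (SE 1.44, adjusted p = 0.467). That difference was largest against its error for Cyp4f16 (-0.75, SE 0.19, adjusted p = 0.165), followed by Gstt3 (-1.14) and Ugt1a6a (-0.98, adjusted p = 0.269). These values did not pass and are given as estimates.

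Genotype was compared over all days, with day as a factor, to ask which enzymes differed when Tnfr2 was deleted. In Tnfr2-/- colonoids 2 of 61 members were higher and 4 lower, against 4.51% higher and 3.09% lower of all symbols, and the median log2 difference was -0.17 for members and -0.03 for all. Since 8 members passed the level threshold through WT alone, the lower count and the negative median are in part set by that choice and are not read against all symbols. The 4 lower members were Cyp2c55, Cyp2c68, Cyp1a1 and Aldh1a1, and the 2 higher ones were Aldh1a3 and Aldh1l1. With the mouse as replicate block Cyp2c68 (adjusted p = 0.0229) and Aldh1a3 (0.0467) remained called, and Cyp2c55 (0.0516), Aldh1a1 (0.0684), Cyp1a1 (0.0853) and Aldh1l1 (0.106) did not. At the late days 1 member was higher and 4 lower, against 3.80% and 2.64%, with a median of -0.41 against -0.05, under the same limit. At the early days 1 was higher and 0 lower, against 0.768% and 0.428%, and 12 had an unadjusted p under 0.05. The 2 higher members over all days and the single early one are too few to set apart from these backgrounds. On mouse means, 2 against 2, no member passed in any of these comparisons, and 6, 13 and 8 had an unadjusted p under 0.05 over all, late and early days.

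**Figure D4:**
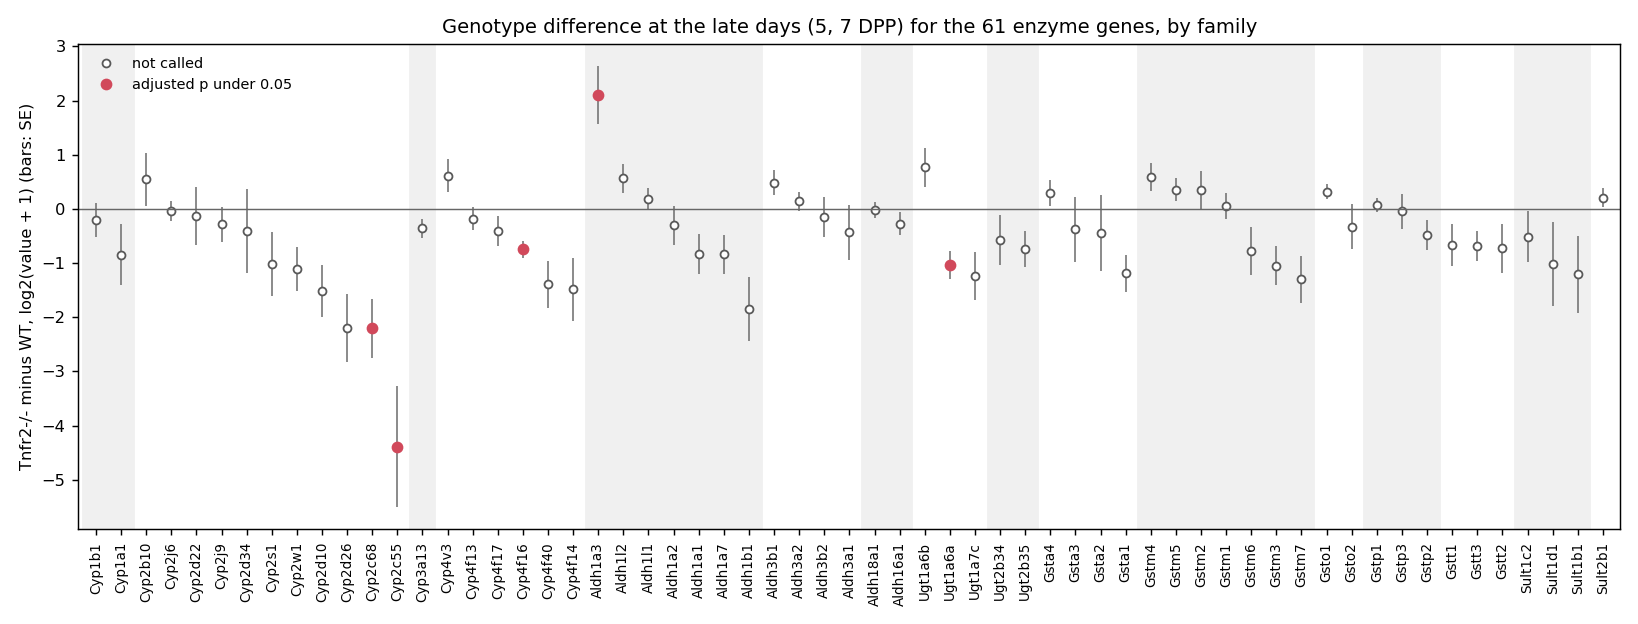
Difference between Tnfr2-/- and WT at the late days (5 and 7 DPP) on the log2(value + 1) scale for each of the 61 members, grouped by family, with bars for SE and filled points for an adjusted p under 0.05. Cyp2c55 lies lowest at -4.39 and Aldh1a3 highest at 2.10.

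Cyp2c55 had the largest genotype difference of any member. Its late WT values were 260.1 and 62.4 in mouse 1 and 23.7 and 25.3 in mouse 2, and its late Tnfr2-/- values were 1.43, 1.92, 3.01 and 0.982, so the groups did not overlap. The late difference was -4.39 (SE 1.12, adjusted p = 0.0337), -3.22 without WT mouse 1 and -5.55 without WT mouse 2. Left out 1 at a time, 9 of 24 libraries or mice ended the call, with a highest adjusted p of 0.384 without Tnfr2-/- mouse 2, and a pseudocount of 0.1 gave an adjusted p of 0.0977. Over all days it was -2.68 (SE 0.71, adjusted p = 0.0276), and -1.04 without WT mouse 1 (adjusted p = 0.370). By day it was -1.65, -1.54, -1.44, -4.69 and -4.09 on days 1, 2, 3, 5 and 7. The early part of the difference was thus carried by WT mouse 1, while at the late days WT mouse 2 was also above every Tnfr2-/- library. The summed goblet level was 195 to 1818 in late WT and 156 to 241 in late Tnfr2-/- libraries, and the colonocyte level 508 to 1447 and 476 to 565, so both ranges overlapped and their upper ends came from WT mouse 1. At the late days 0 of 6 goblet and 2 of 8 colonocyte markers were called, all lower, and the median log2 difference of the tested markers was -1.95 for goblet and -1.09 for colonocyte markers. The colonocyte markers Slc26a3, Aqp8, Car4 and Guca2a and the goblet marker Spdef passed the level threshold through WT alone. Both medians are therefore in part set by that choice, include WT mouse 1, and are not read against all symbols. The markers were not alike: Car1, chosen after its values were seen, separated both WT mice as Cyp2c55 did, at 789, 347, 130 and 196 in late WT against 20.4, 6.14, 11.0 and 6.74 in late Tnfr2-/- libraries, Car2 was called lower with overlapping groups, and Krt20 had a difference of 0.56 that did not pass. Their part in the result was not tested, and in bulk RNA fewer cells of a type and less RNA per cell cannot be told apart.

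Cyp2c68 followed the same order, but it passed the level threshold through WT alone (5.40 against 0.456 in Tnfr2-/- libraries), so that its choice favoured a genotype difference and its tests add no independent evidence of one. Over all days its difference was -1.59 (SE 0.34, adjusted p = 0.00963), and -0.94 without WT mouse 1 (adjusted p = 0.0781). At the late days it was -2.20 (SE 0.55, adjusted p = 0.0301), and -1.70 without WT mouse 1. The late adjusted p was 0.114 with a pseudocount of 0.1. Late WT values of 24.3, 5.86, 4.33 and 7.22 lay above all late Tnfr2-/- values. Of the 31-base words of Cyp2c68, 62.0% occur in other genes, mostly Cyp2c40, so its reads could belong in part to them, but it shares none with Cyp2c55, for which 2.90% of words are shared with any gene. Cyp1a1 was lower over all days, with a difference of -1.16 (SE 0.34, adjusted p = 0.0448), and of -0.49 without WT mouse 1 (adjusted p = 0.437), so that call rests on WT mouse 1, whose first 2 days were the highest values of the gene.

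Late Tnfr2-/- cultures also had less Ugt1a6a and Cyp4f16. Ugt1a6a was at 8.52, 9.19, 8.24 and 22.2 in late Tnfr2-/- libraries and at 41.2, 20.6, 20.8 and 17.4 in late WT ones, with 1 Tnfr2-/- library, mouse 2 on day 7, inside the WT range. The difference was -1.03 (SE 0.26, adjusted p = 0.0302), and -0.74 without WT mouse 1 (adjusted p = 0.244). Cyp4f16 was between 13.0 and 19.8 in late Tnfr2-/- and between 23.8 and 31.6 in late WT libraries, which did not overlap. Its difference was -0.75 (SE 0.15, adjusted p = 0.0114), and -0.67 without WT mouse 1 (adjusted p = 0.110). Of the 31-base words of Cyp4f16, 26.7% are shared, mostly with Cyp4f37.

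Retinal dehydrogenases differed in both directions. Aldh1a3 (chr7:66390890-66427517, minus strand) was at 252, 91.9, 56.5, 44.4 and 175 in WT mouse 1, at 442, 291, 228, 265 and 403 in WT mouse 2, at 593, 287, 227, 675 and 878 in Tnfr2-/- mouse 1 and at 486, 255, 241, 626 and 772 in Tnfr2-/- mouse 2. All Tnfr2-/- values at the late days lay above all WT values, whereas on days 2 and 3 WT mouse 2 was level with the Tnfr2-/- mice. The late difference was 2.10 (SE 0.54, adjusted p = 0.0345), and 1.16 without WT mouse 1. Over all days it was 1.33 (SE 0.34, adjusted p = 0.0255), and 0.51 without WT mouse 1 (adjusted p = 0.124). Aldh1a1, at 4.91 ± 1.89 in WT and 2.29 ± 0.994 in Tnfr2-/- libraries (SD, n = 10 each), was lower over all days, with a difference of -0.81 (SE 0.22, adjusted p = 0.0309). Without WT mouse 1 the difference was -0.95 (adjusted p = 0.0511), and without WT mouse 2 it was -0.66 (adjusted p = 0.0978). Aldh1a2 had a difference of -0.82 over all days and did not pass (adjusted p = 0.0509), and it was at -1.34 without WT mouse 1 and at -0.30 without WT mouse 2. Aldh1l1 was higher by 0.87 at the early days (SE 0.16, adjusted p = 0.0177), and by 0.88 without WT mouse 1. Over all days it was higher by 0.59 (adjusted p = 0.0473), by 0.70 without WT mouse 1 and by 0.49 without WT mouse 2. Its differences were 1.32, 0.91, 0.37, 0.76 and -0.39 from day 1 to day 7.

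Genes that handle retinoids beside these dehydrogenases were examined as a list of 15, of which 12 were tested. Over all days 4 were higher in Tnfr2-/- and none lower, where 4.51% and 3.09% of all symbols were, among them Dhrs3, which reduces retinal (1.97), Crabp1, which binds retinoic acid (1.94), and Stra6, a retinol uptake receptor (1.80). Without WT mouse 1 these differences were 1.91, 1.67 and 1.60. Dhrs3 was at 19.0, 36.5, 30.8 and 41.0 in late Tnfr2-/- libraries and at 1.24, 12.7, 2.97 and 9.42 in late WT ones, without overlap. Fibroblast markers are given beside Aldh1a3 and these genes. All 8 fibroblast markers were tested, 3 were higher over all days and none lower, and their summed level was 1216 to 3919.7 in late WT and 3684 to 8403 in late Tnfr2-/- libraries. Their part in the differences was not tested.

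A list of 10 genes of the AhR battery, which overlaps the members, was followed because 6 of the 7 falling members are on it. All 6 of its genes among the members fell between early and late days, where 14.7% of all symbols did. This restates why the list was followed and is not read against that share. Ugt1a6b among them passed the level threshold through the early libraries alone. Outside the members, Tiparp, an AhR target that feeds back on the receptor, fell by 0.58 (SE 0.10, adjusted p = 5.06e-04). Of 9 tested, 7 fell and none rose, with a median of -0.67. The others did not pass, with differences of 0.09 for Nqo1 and -0.16 for Ahrr, the AhR repressor. Ahr itself rose by 0.39 (adjusted p = 0.0300), a difference that was 0.23 without WT mouse 2 (adjusted p = 0.169). Within a genotype, 3 of the 9 fell in WT and 4 in Tnfr2-/- cultures, against 8.52% and 9.93% of all symbols. The list was drawn up knowing earlier results of these data, so its count is not independent evidence.

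Other genes of the pathway were given by list. Of 13 regulators tested of 15, 4 rose and 1 fell, against 18.0% and 14.7% of all symbols, with the largest change in Nr1i2, the gene of PXR, which rose by 2.04 (SE 0.31, adjusted p = 2.47e-04). Nr1i2 was at 1.18, 1.14, 5.16, 13.6 and 17.2 in WT mouse 1, at 0.131, 0.263, 0.285, 4.74 and 6.24 in WT mouse 2, and at 2.29 to 4.12 in late Tnfr2-/- libraries against at most 0.606 before. Its low early values mean that it passed the level threshold through the late libraries. Hnf4a, a regulator of enterocyte genes, rose by 1.21. Both were higher at the late days, in the same direction as the rising P450, Ugt2 and Sult1 genes, and no link was tested.

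Of 23 P450 partners and other phase I enzymes tested of 26, 7 rose and 2 fell late, against the same 18.0% and 14.7%, with Ces2c (1.97) and Ces1f (1.10), both carboxylesterases, changing most among those called. Fmo5, among those that rose, passed the level threshold through the late libraries. By genotype, 6 were lower and 1 higher in Tnfr2-/- over all days, against 3.09% and 4.51% of all symbols. The lower ones included Ces1d (-1.96) and Ces1f (-1.58), which were at -2.27 and -1.77 without WT mouse 1. Ces2e (-1.58) rested on WT mouse 1, at -0.44 without it (adjusted p = 0.483), and Ces2a (-1.54) fell under the level threshold without it. The other lower genes, Ces2g and Akr1c13, and the higher one, Fmo2, also lost their calls without this mouse (adjusted p = 0.1002, 0.334 and 0.207), which left 2 lower and 0 higher. Ces1f was at 65.0, 85.0, 138 and 112 in late WT libraries and at 25.8, 31.0, 29.6 and 24.5 in late Tnfr2-/- ones, without overlap. Of 15 conjugation and cofactor genes tested of 16, 3 rose and 2 fell late, close to the background shares, among them Papss2, which makes the sulfate donor (0.93), Mgst2 (0.94) and Mgst1 (-0.56), whose call was lost without WT mouse 1 (adjusted p = 0.147), and none was called by genotype over all days. Of 9 transporters tested of 10, 3 rose late, against 18.0% of all symbols, led by the efflux pump Abcb1a (2.03) and the peptide transporter Slc15a1 (1.98). Slc15a1, at 0 to 1.96 in the early libraries, passed the level threshold through the late libraries, so its rise and this count are given as a description. Abcb1b (-0.85) was lower in Tnfr2-/- over all days, where 3.09% of all symbols were, at -0.93 without WT mouse 1. Abcb1a was lower by the same test (-1.35), but at -0.46 without WT mouse 1 (adjusted p = 0.0962). Por, the reductase that serves every microsomal P450, did not pass in either comparison, at 0.32 late minus early and 0.09 by genotype.

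Cell type markers changed over the same days and are given beside these results. Late minus early, 5 of 6 goblet markers tested rose (median 3.13), as did 3 of 8 absorptive colonocyte, 3 of 4 enteroendocrine and all 4 stem cell markers, while 4 of 7 squamous markers fell and 1 rose. Of 8 epithelial markers 4 rose and 2 fell, and 3 of 8 fibroblast markers rose. Of all symbols, 18.0% rose and 14.7% fell. Spdef and Ceacam20, among the markers tested, passed the level threshold through the late libraries. By genotype over all days, 2 goblet, 1 colonocyte and 2 enteroendocrine markers were lower in Tnfr2-/- cultures, and 3 fibroblast, 2 epithelial, 1 squamous and 1 immune marker (Cd68) were higher, against 3.09% lower and 4.51% higher of all symbols. Of 2 tuft and 1 endothelial markers tested none passed in either comparison. The part of cell composition in the enzyme differences was not tested.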

How the data were processed

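Stranded mRNA libraries were read as single ends and, per the submitters' processing notes, handled with CASAVA, kallisto, which divides reads shared by similar transcripts by a model, and sleuth, on mm10. The deposited values are a signal that the authors made by scaling each library's TPM with its own size factor, and they keep no read depth. The authors' own test columns were not used. Of 113974 lines, 781 exact repeats were dropped, and values were summed per gene symbol, with coordinates from GENCODE M21 (GRCm38). Transcripts without a symbol held at most 0.0989% of a library.

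Values were analysed as log2(value + 1), which understates changes of low genes, by limma 3.58.1 with a mean-variance trend in R 4.3.3, for the 13539 symbols with a mean of at least 1, with Benjamini-Hochberg adjustment over all of them. Genotype over all days was fitted beside day as a factor, and the other comparisons were contrasts among the 10 group means. The plan had allowed for counts or TPM, and the rule for normalised values was used. The script was tested on simulated data. The labels give 2 mice per genotype, and replicate numbers were read as naming the same mouse on every day, which the labels do not state outright. Differences between the mice correlated between days at 0.0997 to 0.307 in WT and -0.0511 to 0.0800 in Tnfr2-/-, and the mouse was entered as a block and by means as alternatives. Named members were Cyp2c55, Aldh3a1, the highest member of each family and the called members with the largest differences (10 per direction between days, 8 per direction for genotype), with up to 4 called genes per list. Cyp2b10, Cyp2d26, Aldh1a2, Aldh1l2, Ugt2b35, Gstm3, Gstt3, Por, Nqo1 and Ahrr were named after their values were seen. The members and lists were chosen with earlier results of these data known. The labels gave no batch or date.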

Additional observations from a re-analysis of the deposited data

Results flagged for a closer look

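In 114 comparisons of a single library with its group (29 named members in early or late libraries of a genotype, 4 to 6 libraries each), 17 lay apart by Dixon's criterion. Its rate of about 1 in 20 holds for libraries that differ by chance alone. Each group here pools days of a changing course, so that rate is no yardstick for the 17. WT mouse 1 held 11 of them. On day 3 it was apart from the other early WT libraries in Cyp2c55 (58.4), Cyp2w1 (2.50), Cyp2s1 (4.51), Gsta3 (33.9), Aldh1b1 (6.73) and Aldh3b2 (3.18), with the next values at 12.5, 0.914, 1.41, 11.1, 1.59 and 0.692. On day 5 it was apart from the other late WT libraries in Cyp2c55 (260.1), Ugt1a7c (101), Cyp2c68 (24.3), Cyp1a1 (5.54) and Ugt1a6a (41.2). Among Tnfr2-/- libraries, mouse 1 was apart on day 3 in Sult2b1 (64.9) and in Cyp2c68 (0.351, with the other early libraries at 0). On day 7 mouse 1 was apart in Gsta3 (29.8) and mouse 2 in Aldh1b1 (3.99) and Ugt1a6a (22.2). WT mouse 2 was apart in Aldh1a1 (2.50) on day 1. These tests share libraries, so values that lie apart in 1 library are not independent.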

How the results depend on the processing

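No called member changed direction under the alternatives run. The counts of called members (25 late against early, 23 in WT, 16 in Tnfr2-/-, 6, 5 and 1 for genotype over all, late and early days and 0 for the difference of genotype effects) moved by over 1.5 times as follows. With a mean of at least 5, where 35 members were tested, they were 15, 14 in WT and 3 for genotype over all days. Without a filter, genotype gave 1 over all and 1 at the late days, and a pseudocount of 0.1 gave 3 at the late days. With the mouse as replicate block, genotype over all days gave 2 and the difference of genotype effects 1 (Aldh1a3), with no other such change. With mean values per mouse, WT, Tnfr2-/- and the genotype comparisons over all, late and early days gave 0, with 33, 21, 6, 13 and 8 members at an unadjusted p under 0.05. Leaving out 1 library or mouse in turn (24 fits) gave 11 to 31, 6 to 25 in WT, 0 to 24 in Tnfr2-/-, 0 to 21, 0 to 25 and 0 to 13 for genotype over all, late and early days and 0 to 3 for the difference of effects. The lowest counts came without a Tnfr2-/- mouse and the highest genotype counts without WT mouse 2. Without a mouse, its genotype's lone libraries are assumed to vary like the pairs of the other genotype. Of the 25 late against early calls, 9 held in all 24 fits, and no genotype call did. Added after the data were seen, the same fits of pathway genes outside the members kept 21 of 26 late against early calls, 7 of 14 genotype calls over all days and 9 of 13 at the late days without WT mouse 1, 20, 13 and 12 without WT mouse 2, and 26, 11 and 13 with the replicate block. Rescaling each library to a fixed sum and quantile normalisation kept every count within 1.5 times. The table keeps no read depth, so values of a few units carry an unknown counting error.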
